A study of Rattus norvegicus with 3 samples.

Results

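Cluster 14 of the UAC library is the group of cells numbered 14 in that library's deposited clustering table, where the cells of 1 library were grouped by their expression, and it carries the working name of a dendritic cell cluster. It was taken by its number, as 1 of 18 clusters, and is compared below with the other 17. Its genes summed to 2323866 unique molecular identifiers (UMIs, the counted RNA molecules). That was 2.51% of the library's 92629658 UMIs, with exact binomial 95% limits that both round to 2.51%. The tables hold no cell barcodes, so neither cells nor barcodes shared between libraries could be counted. In cells of the library's typical UMI content, the cluster's UMIs correspond to about 447 cells of 17813 in the library and of 50801 in the series. UMIs were found in cluster 14 for 13233 genes. Mitochondrial genes took 0.550% of its UMIs and ribosomal protein genes 15.5%.

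The series holds 3 single-cell libraries of condylar cartilage and subchondral bone from the temporomandibular joint of SD rats, 24 animals in all. Each library pooled the 16 condyles of 8 rats. The sham group received Vector AAV, an adeno-associated virus without the microRNA, injected into the joint, and no crossbite. The UAC group received Vector AAV with unilateral anterior crossbite, a dental appliance that loads the joint unevenly and is used to model its osteoarthritis, and the UAC + miR-330 group received the crossbite with an AAV carrying miR-330. All animals thus carried an AAV, and they were kept for 8 weeks. The age and sex of the rats were not given. The libraries held 77668015 UMIs in 15 clusters (sham), 92629658 in 18 (UAC) and 97255383 in 19 (UAC + miR-330). Each condition is 1 pooled library, so differences lack replicates and were not tested. Levels are given in CPM (UMIs of a gene over all UMIs of the cluster or library, scaled to 1000000) with exact Poisson 95% intervals, which cover counting error only. UMIs of a cluster cannot tell apart fewer cells from less RNA per cell.

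Dendritic cells take up antigen and show it to T cells on MHC class II molecules. Plasmacytoid dendritic cells, which depend on the transcription factor Tcf4 and carry the surface lectin Siglech in rodents, sense viral nucleic acids in endosomes and release type I interferon. Conventional dendritic cells use the factors Zbtb46, Batf3 or Irf4 and fall into a cross-presenting type 1 and a type 2. Both kinds need the growth factor receptor Flt3 and arise in marrow, which also fills subchondral bone.

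Of the 4 genes given to mark the cluster, Siglech, Irf8 and Flt3 were higher in cluster 14 than in any other cluster of the library, and Tcf4 was the next to highest. Siglech, an endocytic receptor of plasmacytoid cells, stood at 117.9 CPM (104 to 133, from 274 UMIs) against 1.33 CPM in the other 17 clusters pooled, a log2 ratio of 6.47. Cluster 14 held 69.5% of the library's 394 Siglech UMIs (exact binomial 95% interval 64.7 to 74.1%). The cluster with the next highest Siglech, cluster 15, had 9.09 CPM, so Siglech in cluster 14 lay far above every other cluster. Irf8, a transcription factor of dendritic, monocyte and B cell development, stood at 476 CPM (449 to 505) in cluster 14, 25.7 CPM in the rest and 130 CPM in cluster 2, the next highest. Flt3, the receptor for a growth factor of dendritic cells and early progenitors, stood at 246 CPM (226 to 267) against 14.04 CPM. Cluster 14 held 31.0% of the Flt3 UMIs (28.9 to 33.2%), and cluster 15, the library's highest in the lymphoid precursor enzyme gene Dntt, came next at 126 CPM. Flt3 was thus shared with a cluster of precursor genes in a way that Siglech was not. Tcf4 stood at 1087 CPM (1045 to 1130) in cluster 14 and 380 CPM in the rest, a log2 ratio of 1.52, below the 1202 CPM of cluster 15. The 4 genes carry the identifiers ENSRNOG00000021499 (Siglech), ENSRNOG00000017869 (Irf8), ENSRNOG00000054764 (Flt3) and ENSRNOG00000012405 (Tcf4).

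These 4 genes were given with the working name, so their levels do not test it. The rest of the cluster's genes went against the name in part. Genes of mature B cells and of MHC class II were among its leading genes, and several genes that define plasmacytoid or conventional dendritic cells had few UMIs or none. No cell type name is therefore used, and it is called cluster 14 throughout. Doublets, droplets that caught cells of different types, were not called, because the tables hold no single cells. RNA free in the suspension was not subtracted, and its part in any level was not tested.

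**Figure D1:**
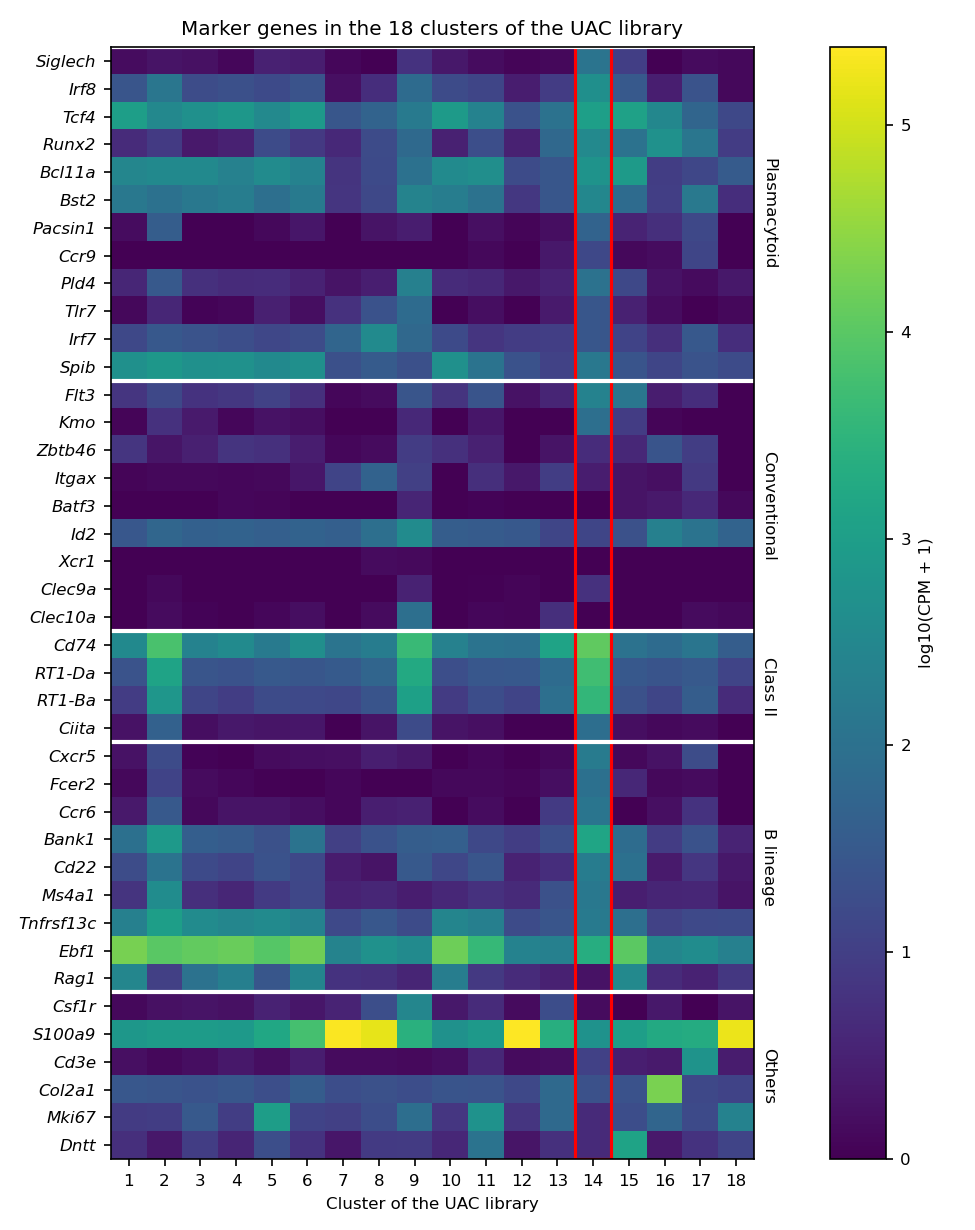
Level of each marker gene (down the side, by list) in each of the 18 clusters of the UAC library (across), as log CPM on the colour scale. Cluster 14 combines the highest Siglech (117.9 CPM) and RT1-Da (5234 CPM) with Cxcr5 (174 CPM), while Csf1r, at 296 CPM in cluster 9, gave 1 UMI in cluster 14.

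Most of the plasmacytoid list was higher in cluster 14 than in the other clusters pooled, with gaps among its defining members. A gene is called enriched below when it had at least 10 UMIs in cluster 14 and a log2 ratio of at least 1 against the other 17 clusters pooled. Of 30 listed genes, 29 were matched, 22 had at least 10 UMIs and 16 were enriched, while 12.5% of all 9059 genes with at least 10 UMIs met the same limit. The median log2 ratio of the list was 1.52, against -0.06 over 15827 genes with enough UMIs. Cluster 14 was the highest of the 18 clusters for 6 plasmacytoid genes, a rank that 8.85% of the 9059 genes reached. The list's genes summed to 3878 CPM in cluster 14 and to 1938 CPM in the rest, below the 4104 CPM of cluster 15 and close to the 3555 CPM of cluster 1. Against the highest other cluster for each gene, the list's median was -1.83, so most members had a higher level somewhere else in the library. These shares describe how the cluster was made, since its cells were grouped by their expression.

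Among the transcription factors of the plasmacytoid list other than Irf8, those raised in cluster 14 were higher in another cluster, as Tcf4 was. Runx2, which guides the exit of plasmacytoid cells from marrow and also bone formation, stood at 344 CPM (320 to 369) in cluster 14 and at 517 CPM in cluster 16, the library's highest in the cartilage collagen Col2a1. Bcl11a, a factor of lymphoid and plasmacytoid development, stood at 579 CPM, below the 844 CPM of cluster 15. Spib and Irf7 did not follow. Spib, an ETS factor of plasmacytoid and B cells, stood at 142 CPM in cluster 14 and 248 CPM in the rest. Irf7, the master factor of interferon induction, was level with the rest, at 27.1 CPM against 27.7 CPM.

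The surface and sensing genes of the list gave the same mixed picture. Bst2, a tethering protein that plasmacytoid cells display, was highest in cluster 14 at 315 CPM (293 to 339), followed by 257 CPM in cluster 9. Ccr9, a homing receptor of plasmacytoid cells to the gut, had 31 UMIs in cluster 14, 13.3 CPM (9.06 to 18.9) and 44.3% of the library's 70 UMIs, but cluster 17 was close at 12.3 CPM. Pacsin1, an adaptor of plasmacytoid cells, was highest in cluster 14 at 51.2 CPM with 36.7 CPM in cluster 2, and Ly6d, a lymphoid surface protein, was highest with 11 UMIs. The endosomal machinery was present, and higher in another cluster. Pld4, an endosomal nuclease, stood at 106 CPM, and Tlr7, the endosomal sensor of single-stranded RNA, at 27.1 CPM. Both were higher in cluster 9, at 216 CPM and 75.2 CPM. Tlr9, the endosomal sensor of DNA, gave 3 UMIs in cluster 14, and 92 in the whole library.

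The other members of the list ranged from enriched to absent. Havcr1 at 22.0 CPM, Atp1b1 at 32.7 CPM, Smim5 at 16.4 CPM, Cd4 at 10.8 CPM and Lifr at 9.47 CPM were enriched in cluster 14, each at the rank next to the highest. Lower in cluster 14 than in the rest were Mzb1, a chaperone of antibody secretion, at 91.2 CPM against 172 CPM, and Mctp2 at 296 CPM against 436 CPM. Ptprs, a surface phosphatase that marks plasmacytoid cells in mice and humans, was also lower, at 14.2 CPM against 32.0 CPM. Further members were hardly seen: Dntt had 8 UMIs, Clec12a 9, Lag3 4 and Upb1 1, while Cox6a2 and Lair1 had none. A count of 0 in cluster 14 allows up to 3 counts, or 1.29 CPM, as a 1-sided 95% limit, where the 2-sided interval ends at 1.59 CPM, and in the whole library these last genes had 15 and 8 UMIs, so their absence from cluster 14 was not detectable as a difference. Plac8 is not listed under that name.

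Most of the conventional list was not raised in cluster 14. Of 36 listed genes for conventional cells, 31 were matched and 18 had at least 10 UMIs in cluster 14. Of these 18, 5 were enriched, where 12.5% of all 9059 genes with at least 10 UMIs were. The median log2 ratio of the list was -0.76. Against cluster 2 alone, a comparison added after the values were seen, that median was 0.75. Among the genes that both conventional kinds use, only Flt3 and Kmo were enriched. Kmo, an enzyme of tryptophan breakdown, stood at 92.1 CPM (80.2 to 105) against 1.30 CPM in the rest, and cluster 14 held 64.7% of its 331 UMIs. Zbtb46, the factor that marks committed conventional cells, had 9 UMIs in cluster 14, or 3.87 CPM (1.77 to 7.35), against 4.49 CPM in the rest. Itgax, the integrin CD11c, had 4 UMIs. Batf3, a factor of type 1 cells, had none, and its 0.432 CPM in the rest lay under the 1.29 CPM that a count of 0 allows. Id2, which holds back Tcf4 and its relatives in conventional cells, stood at 12.5 CPM against 76.7 CPM, a log2 ratio of -2.60 and rank 17 of 18. Nfil3, a factor of type 1 development, stood at 21.5 CPM against 56.5 CPM, and Cst3, a protease inhibitor abundant in dendritic cells, at 170 CPM against 488 CPM. The surface peptidase gene Dpp4 stood at 19.8 CPM against 97.6 CPM. Bcl6 at 47.3 CPM and Klf4 at 238 CPM, both transcription factors, lay above the rest without reaching the limit for enriched.

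Type 1 genes were split in cluster 14. Of 11 matched genes, 6 had at least 10 UMIs and 5 had none. Of the 6, 3 were enriched (Clec9a, Naaa and Cadm1), where 12.5% of all 9059 genes with at least 10 UMIs were. The median log2 ratio of the list was -0.05. Xcr1, the chemokine receptor that defines type 1 cells, had no UMI, and the whole library had 3. Clec9a, their receptor for dead cells, had 11 UMIs in cluster 14, or 4.73 CPM (2.36 to 8.47), which was 39.3% of the library's 28 and the highest level of the 18 clusters. Cluster 9 held 13 of them at 2.22 CPM (1.18 to 3.79), not apart from cluster 14. Wdfy4, which type 1 cells need for cross-presentation, stood at 369 CPM against 383 CPM, and cluster 10, the library's highest in the B cell factor gene Pax5, had 1068 CPM. Naaa, a lysosomal amidase, was enriched at 92.1 CPM against 33.6 CPM, and Cadm1, an adhesion molecule, at 6.46 CPM from 15 UMIs. Itgae at 7.75 CPM and Ppt1 at 19.4 CPM were near the rest. Tlr3, Snx22, Gcsam and Rab7b had no UMI in cluster 14, and of these only Rab7b, at 5.25 CPM, exceeded 1.29 CPM in the rest.

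No type 2 gene was enriched in cluster 14. Clec10a, a lectin of type 2 cells, had no UMI in cluster 14 and 90.7 CPM in cluster 9. Cd209a, another lectin, had 3 UMIs of the library's 6. Sirpa, the receptor that separates type 2 from type 1 cells, stood at 24.96 CPM against 22.0 CPM. Irf4, a factor of type 2 and B cells, stood at 128 CPM against 158 CPM. Type 2 lectin and receptor genes of cluster 9 were near zero here, with 1 UMI each of Clec4a1 and Clec4a2. Cd1d1 at 5.59 CPM and Il1r2 at 7.75 CPM were lower in cluster 14 than in the rest, and Tnfsf9 had 8 UMIs.

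Genes of activated, migrating dendritic cells were present in part. Of 12 listed genes, 10 had at least 10 UMIs in cluster 14. Of these 10, 4 were enriched, where 12.5% of all 9059 genes with at least 10 UMIs were. Ccr7, the receptor that leads dendritic and B cells into lymph nodes, was highest in cluster 14 at 46.9 CPM (38.5 to 56.6), followed by 26.02 CPM in cluster 17. The costimulatory gene Cd86 stood at 83.1 CPM, close to the 86.9 CPM of cluster 9, and the checkpoint ligand gene Cd274 at 247 CPM against 22.4 CPM in the rest. Cd40, a receptor for T cell help, stood at 179 CPM, below the 291 CPM of cluster 2. All 4 of the enriched genes are also used by B cells. The genes that more closely mark migrating dendritic cells were not raised: Fscn1, an actin bundler, had 2 UMIs, the chemokine gene Ccl22 none, and Ccl17 stood at 5.16 CPM against 19.2 CPM. Relb at 204 CPM and Marcks at 244 CPM were near the rest.

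MHC class II genes were raised together in cluster 14. Of the 10 listed genes, 8 had at least 10 UMIs, all 8 were enriched, and all 8 were highest in cluster 14, with a median log2 ratio of 4.32. Over all 9059 genes with at least 10 UMIs, 12.5% were enriched and 8.85% were highest in cluster 14. The list summed to 24961 CPM in cluster 14, 10428 CPM in cluster 2, 8853 CPM in cluster 9 and 1752 CPM in all 17 other clusters pooled. Cd74, the chain that escorts class II molecules, was the most abundant gene of cluster 14 outside the ribosomal, mitochondrial and immunoglobulin genes, at 11489 CPM against 6969 CPM in cluster 2. The antigen-binding chains followed it. RT1-Da stood at 5234 CPM (5141 to 5327), RT1-Db1 at 3992 CPM and RT1-Ba at 3548 CPM, and the next highest cluster had 1886, 1311 and 1134 CPM. RT1-Bb stood at 359 CPM. The class II regulator Ciita, a coactivator that switches these genes on, stood at 88.2 CPM against 46.2 CPM in cluster 2. RT1-DOa and RT1-DOb, which hold back peptide loading in B cells and some dendritic cells, stood at 171 CPM and 78.7 CPM. The loading chains RT1-DMa and RT1-DMb had 1 and 2 UMIs, with 3 and 7 in the whole library, too few for a comparison.

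The class II promoters are shown because these genes were raised together and their promoters are known to carry a Y box, an inverted CCAAT element bound by nuclear factor Y. RefSeq promoters of build GRCr8, running from 250 bases before to 50 after each gene start, were searched on both strands, and the Y box letters CTGATTGG were chosen after the expression values were seen. Of 33469 promoters, 3.50% held them. Of the 8 class II genes with a promoter in the table, 5 held them (62.5%): RT1-Ba, RT1-Bb, RT1-DOa, RT1-Da and RT1-Db1. The capitals mark the letters in RT1-Da (chr20:4515165-4515464, plus strand), RT1-Db1 (chr20:4560113-4560412, minus strand) and RT1-Ba (chr20:4576807-4577106, plus strand).
RT1-Da: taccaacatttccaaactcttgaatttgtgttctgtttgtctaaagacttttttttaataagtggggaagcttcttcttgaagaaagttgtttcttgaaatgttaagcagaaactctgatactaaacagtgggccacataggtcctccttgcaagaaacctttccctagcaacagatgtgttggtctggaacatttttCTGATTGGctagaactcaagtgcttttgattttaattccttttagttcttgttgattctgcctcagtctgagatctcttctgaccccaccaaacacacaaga
RT1-Db1: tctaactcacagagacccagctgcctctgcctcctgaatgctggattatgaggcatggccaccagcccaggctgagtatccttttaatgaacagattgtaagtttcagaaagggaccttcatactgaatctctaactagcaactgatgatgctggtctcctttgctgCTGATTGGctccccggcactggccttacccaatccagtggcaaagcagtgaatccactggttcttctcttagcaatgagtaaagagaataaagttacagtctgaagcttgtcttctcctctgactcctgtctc
RT1-Ba: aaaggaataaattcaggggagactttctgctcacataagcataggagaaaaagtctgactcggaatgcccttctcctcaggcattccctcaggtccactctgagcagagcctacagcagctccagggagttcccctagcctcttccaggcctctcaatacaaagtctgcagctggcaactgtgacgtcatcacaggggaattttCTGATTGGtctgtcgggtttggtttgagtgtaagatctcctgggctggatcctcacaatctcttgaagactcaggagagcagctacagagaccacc
A match is a description of the sequence, and binding was not measured. Of the 25 leading genes described below, 18 had a promoter in the table, and 4 of them held the Y box letters (22.2%): Irf8, Kmo, RT1-Ba and RT1-DOa. The E-box CAGCTG, a word read by Tcf4 and its relatives, was in 3 of the 18 (16.7%: Btla, Fchsd2 and RT1-Ba) and in 15.1% of all promoters. The ETS-IRF element GGAANNGAA was in none of the 18 and in 9.32% of all promoters. Of the 8 class II promoters, 3 held the E-box (37.5%: RT1-Ba, RT1-Bb and RT1-Db1) and 1 the ETS-IRF element (Cd74).

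Genes of mature B cells were also raised in cluster 14. A list of 16 such genes was drawn up after the cluster's values were seen, so its counts are a description. Such a choice favours high counts. All 16 had at least 10 UMIs in cluster 14, 11 were enriched and 10 were highest in cluster 14, with a median log2 ratio of 3.08. Of all 9059 genes with at least 10 UMIs, 12.5% were enriched and 8.85% were highest in cluster 14. Cxcr5, the receptor that draws B cells into follicles, stood at 174 CPM (157 to 192) against 15.5 CPM in cluster 2, the library's highest in the B cell surface gene Ms4a1. Fcer2, the low-affinity IgE receptor CD23, stood at 93.4 CPM against 10.8 CPM, and the chemokine receptor gene Ccr6 at 121 CPM against 30.3 CPM. These are genes that B cells gain late, when they leave the marrow. Fcrl5 stood at 95.1 CPM, the inhibitory receptor Btla at 140 CPM and the complement receptor Cr2 at 94.7 CPM. Bank1, an adaptor of B cell receptor signals, stood at 1468 CPM (1419 to 1518) against 794 CPM in cluster 2. Cd22 stood at 184 CPM against 113 CPM, Cd83 at 2766 CPM against 1586 CPM, and Zfp318, which lets mature B cells make IgD, at 272 CPM against 118 CPM. Each of these genes was higher in cluster 14 than in the cluster richest in Ms4a1.

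The core B cell genes were present in cluster 14 at lower levels than in cluster 2. Ms4a1 stood at 140 CPM against 403 CPM and Cd79b, a chain of the B cell receptor, at 531 CPM against 1403 CPM. Pax5, the factor that commits cells to the B lineage, stood at 566 CPM against 686 CPM. Ebf1, which acts with Pax5, stood at 2217 CPM against 9899 CPM. The survival factor receptor gene Tnfrsf13c at 154 CPM against 1017 CPM and the surface gene Cd72 at 117 CPM against 758 CPM were lower still in proportion. Cd37 at 417 CPM and Cd55 at 109 CPM were also below cluster 2, at 1356 and 226 CPM, and so was the IgM heavy chain Ighm at 3971 CPM against 5789 CPM. Of the 13 genes of the broader B-lineage list, 11 had at least 10 UMIs. Of these 11, 4 were enriched (Ms4a1, Fcer2, Cd22 and Bank1), where 12.5% of all 9059 genes with at least 10 UMIs were. The median log2 ratio of the list was 0.54. Against cluster 2 alone, a comparison chosen after the values were seen, the median was -0.67. Genes of early B cells were nearly absent: Rag1, which cuts antibody genes, had 2 UMIs in cluster 14, and the surrogate light chain genes Igll1 and Vpreb1 had 10 each, while cluster 15 stood at 337, 1232 and 513 CPM.

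Some of these genes also gave UMIs in clusters of another type. In the 4 clusters highest in the neutrophil gene S100a9 (7, 8, 12 and 18), pooled, Pax5 stood at 11.0 CPM, Ms4a1 at 2.38 CPM and Bank1 at 9.45 CPM. Cxcr5 stood there at 0.476 CPM, Fcer2 at 0.136 CPM, Siglech at 0.204 CPM and Flt3 at 0.408 CPM. Ebf1 and Ighm were higher there, at 284 and 403 CPM, against 2217 and 3971 CPM in cluster 14. Whether RNA free in the suspension gave these levels was not tested. Whether the B cell and plasmacytoid genes lie in the same cells of cluster 14 could not be seen from cluster sums.

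Nucleic acid sensing genes were raised in part, and interferon-stimulated genes were not raised as a group. Of 17 matched genes for endosomal sensing and interferon induction, 16 had at least 10 UMIs in cluster 14. The median log2 ratio was 0.56, and the list summed to 1404 CPM in cluster 14, 810 CPM in the rest, 1777 CPM in cluster 9 and 1519 CPM in cluster 2. Where 12.5% of all 9059 genes were enriched, 4 of these 16 were: Tlr7, the interferon receptor chain Ifnar2 at 207 CPM, the factor Irf5 at 68.4 CPM and the endosomal protease Ctsl at 123 CPM. None was highest in cluster 14. Traf3, a signalling adaptor, was the most abundant at 291 CPM against 175 CPM in the rest, and the other receptor chain gene, Ifnar1, stood at 187 CPM. Unc93b1, which carries the sensors to endosomes, stood at 183 CPM, and its highest level was 398 CPM in cluster 9. Interferon-stimulated genes, the read-out of interferon already received, gave 3 enriched of 17 matched: Bst2, Herc6 at 104 CPM and Mx1 at 25.8 CPM. The 17 include genes with fewer than 10 UMIs, which the share of 12.5% leaves out. The median log2 ratio of that list was -0.53. Isg15 at 6.89 CPM, Ifit3 at 16.4 CPM and Oas1a at 4.73 CPM were lower in cluster 14 than in the rest, and all had their highest level in cluster 8. Ifi27 stood at 46.5 CPM against 64.9 CPM.

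Secretory genes were at the level of the other clusters. All 18 listed genes of the endoplasmic reticulum had at least 10 UMIs in cluster 14. Of them, 1 was enriched, where 12.5% of all 9059 genes were, and the median log2 ratio was 0.07. The enriched gene was Dnajb9, a chaperone helper, at 149 CPM (133 to 165), followed by 139 CPM in cluster 13, the library's highest in the plasma cell gene Jchain. The chaperone gene Hspa5 at 332 CPM, Ssr4 at 330 CPM and Canx at 296 CPM were the most abundant and stood near the rest.

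Receptors for chemokines and for growth factors were raised in part. Of 14 matched migration and homing genes, 12 had at least 10 UMIs, 8 were enriched, where 12.5% of all 9059 genes were, and 4 were highest in cluster 14, with a median log2 ratio of 1.20. Cxcr4, which holds cells in marrow, was the most abundant at 571 CPM against 270 CPM in the rest. The integrin chain gene Itga4 stood at 368 CPM and S1pr1, the receptor for leaving tissue into blood, at 138 CPM. Cmklr1, the chemerin receptor of plasmacytoid cells, was highest in cluster 14 at 21.5 CPM (16.0 to 28.4), followed by 15.9 CPM in cluster 9. The integrin gene Itgb2 stood at 191 CPM, below cluster 7. Of 14 matched growth factor and cytokine receptors, 12 had at least 10 UMIs and 7 were enriched, with a median of 1.22. Il6r was the most abundant at 393 CPM. Csf2rb, the shared chain of the IL-3 and GM-CSF receptors, was highest in cluster 14 at 20.7 CPM, with 17.4 CPM in cluster 9. The partner chains were low, with Csf2ra at 15.1 CPM against 72.3 CPM and Il3ra, the receptor chain that marks human plasmacytoid cells, at 8.18 CPM against 22.0 CPM.

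Genes of other cell types were low in cluster 14. Of 14 monocyte and macrophage genes, 2 had at least 10 UMIs, none was enriched, and the list summed to 113 CPM against 20440 CPM in cluster 9, which had the library's highest Csf1r. Csf1r, the receptor that macrophages need, had 1 UMI in cluster 14, Cd14 had 8, and C1qa, Mrc1 and Fcgr1a had none. Lyz2, the most abundant of the list, stood at 91.2 CPM against 2854 CPM, and Cd68 at 9.90 CPM. Cluster 14 thus shared class II with cluster 9. Of the macrophage genes named here, Lyz2 stood at 91.2 CPM in cluster 14 and the others at 9.90 CPM or less. Neutrophil genes were the lowest of the abundant ones: S100a9 stood at 544 CPM, S100a8 at 541 CPM and Ngp at 178 CPM, and S100a9 had rank 17 of 18. Mast cell and basophil genes gave 14 UMIs over 10 matched genes, Kit the most with 6, then Cpa3, Fcer1a and Gata2 with 2 each. Megakaryocyte genes gave 27 UMIs over 7 genes, led by Pf4 with 9, Ppbp with 8 and Itga2b with 6.

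The lymphoid and erythroid lists held a few exceptions. Of 12 matched T and natural killer cell genes, 6 had at least 10 UMIs in cluster 14, and Prf1, the pore-forming protein perforin, was enriched at 15.9 CPM (11.2 to 22.0), while cluster 17 had 167 CPM. Cd3g stood at 34.0 CPM, Cd2 at 16.8 CPM and Cd3e at 9.90 CPM. Cd3e was second to cluster 17, which had 565 CPM. Plasma cell genes gave none enriched of 7 matched, with Jchain at 43.0 CPM and a median of 0.25. Erythroid genes gave none of 9, with Tfrc at 65.8 CPM, Hba-a1 at 32.7 CPM and Car2 at 29.7 CPM. The progenitor list had 1 enriched gene of 10, Flt3, while the progenitor factor gene Myb stood at 47.3 CPM against 357 CPM and Meis1 at 5.16 CPM against 6.90 CPM. No progenitor gene beside Flt3 was thus raised in cluster 14.

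Cartilage, bone and vessel genes were low, each list with an exception. Of 12 cartilage, bone and fibroblast genes, only Runx2 was enriched, and the list's median was -5.01. Col2a1, the main cartilage collagen, stood at 21.1 CPM against 1305 CPM and Col1a1, the main bone collagen, at 72.7 CPM against 3174 CPM. Of 7 endothelial genes, 4 had no UMI, Tek had 2 and Cdh5 had 1, yet Kdr, a receptor for vascular growth factor, was highest in cluster 14 at 36.1 CPM (28.8 to 44.7), with 64.6% of the library's 130 UMIs. Osteoclasts, the cells that dissolve bone, gave 2 enriched genes of 8, where 12.5% of all genes with at least 10 UMIs were enriched. These were Nfatc1, a factor of osteoclasts and lymphocytes, at 296 CPM and highest in cluster 14, and Acp5, an acid phosphatase, at 282 CPM beside 301 CPM in cluster 2. Ctsk, which cuts bone collagen, had 8 UMIs, and Mmp9 had 10. Genes of dividing cells were low too: none of 17 matched cell cycle genes was enriched, the median was -3.43, and Mki67, a marker of dividing cells, had 8 UMIs and the lowest rank of the 18 clusters. Hmgb2 at 268 CPM, Tubb5 at 216 CPM and Pcna at 122 CPM were the most abundant of them.

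The 25 leading genes of cluster 14 were those with the highest ratio to the highest of the other 17 clusters, among genes with at least 100 UMIs. They came from several groups. Sh3gl2, an endocytic adaptor best known at synapses, led at 105 CPM (92.2 to 119), 32.6 times the next cluster, and cluster 14 held 81.3% of its UMIs. Camk2a, a calcium-dependent kinase of neurons, followed at 63.3 CPM and 22.5 times. Siglech came next at 13.0 times, then Fcrl5 at 11.9 times, Kmo at 11.3 times, Cxcr5 at 10.6 times and Fcer2 at 8.64 times. A plasmacytoid gene, a conventional gene and 3 B cell genes thus stood side by side among the first 7. RT1-DOa followed at 8.42 times, and Hs3st3a1, an enzyme that modifies heparan sulfate, at 158 CPM and 8.38 times. Lax1, an adaptor that limits lymphocyte receptor signals, reached 766 CPM and 4.24 times, and Fchsd2, an endocytic scaffold, 1055 CPM and 4.00 times.

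The other leading genes were Trpm6, a magnesium channel, Snx9, an endocytic sorting protein, RT1-DOb, Matn2, Ccr6, Rnase6, Irf8, Gramd1b, Btla, Icoslg, Tmbim1, RT1-Ba and the unnamed LOC102550441 and AC111804.2, at ratios from 6.97 for LOC102550441 down to 3.13 for RT1-Ba. The cluster with the next highest level was cluster 2 for 10 of the 25, cluster 9 for 4, cluster 13 for 4, and clusters 15 and 16 for 2 each. Cluster 2, the Ms4a1-rich cluster, thus came next most often. The most abundant named genes after Cd74 included Tmsb4x, an actin-binding peptide, at 6172 CPM, RT1-Da, Tpt1 at 4758 CPM, RT1-Db1, RT1-Ba and Cd83. The others were AABR07060872.1 at 10562 CPM and AC134224.3 at 10369 CPM, and LOC100360522, LOC108350501, LOC100364435, LOC687780 and LOC100360449, whose products the files do not name. The lowest genes against the rest were sought among those with at least 200 CPM in the rest. They were Retnlg with a log2 ratio of -6.33, RatNP-3b with -6.30, Mki67 with -6.06, S100a9 with -5.97 and Col2a1 with -5.94. Col1a1, Trim2, S100a6, Np4 and Sparc followed. Among these 10 are genes of neutrophils, dividing cells, cartilage and bone.

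Siglech and Flt3 were looked for in the other libraries because each library was clustered alone and the numbers do not carry over. In sham, cluster 15 held most Siglech, with 61 of 128 UMIs, or 47.7% (38.8 to 56.7%), at 18.02 CPM (13.8 to 23.1). Cluster 1 came next with 23. Cluster 15 of sham was a different kind of cluster from cluster 14 of UAC. It had the highest Csf1r of sham, 292 CPM, and 102 CPM of Clec10a, against 1 UMI and none in cluster 14. It also had 7 UMIs of Xcr1 and 21 of Clec9a. Siglech in the clusters richest in Csf1r was 18.02 CPM in sham, 5.28 CPM in UAC (cluster 9) and 11.7 CPM in UAC + miR-330 (cluster 10). Flt3 in sham was spread out: cluster 13 held most, 161 of 572 UMIs or 28.1% (24.5 to 32.0%), cluster 11 followed with 117, and cluster 11 had the highest level at 30.9 CPM, next to 30.4 CPM in cluster 15. No sham cluster came near the 117.9 CPM of Siglech and 246 CPM of Flt3 in cluster 14. Sham cluster 15 also held the mast cell and basophil list at 400 CPM and the erythroid list at 854 CPM. In UAC cluster 9 these lists stood at 4.09 and 79.6 CPM. Whether cells like those of cluster 14 lay within a mixed sham cluster was not tested.

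In UAC + miR-330, cluster 8 held most Siglech, with 156 of 331 UMIs, or 47.1% (41.6 to 52.7%), at 50.4 CPM (42.8 to 59.0). Clusters 10 and 14 followed with 70 and 40 UMIs, at 11.7 and 11.1 CPM. Flt3 was held mostly by cluster 11, with 597 of 2103 UMIs or 28.4% (26.5 to 30.4%). Cluster 8 was next with 496 and had the highest Flt3 level, 160 CPM (147 to 175). In UAC, cluster 14 was first for both genes by UMIs and by level. In UAC + miR-330, cluster 8 was first for both by level and for Siglech by UMIs.

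**Figure D2:**
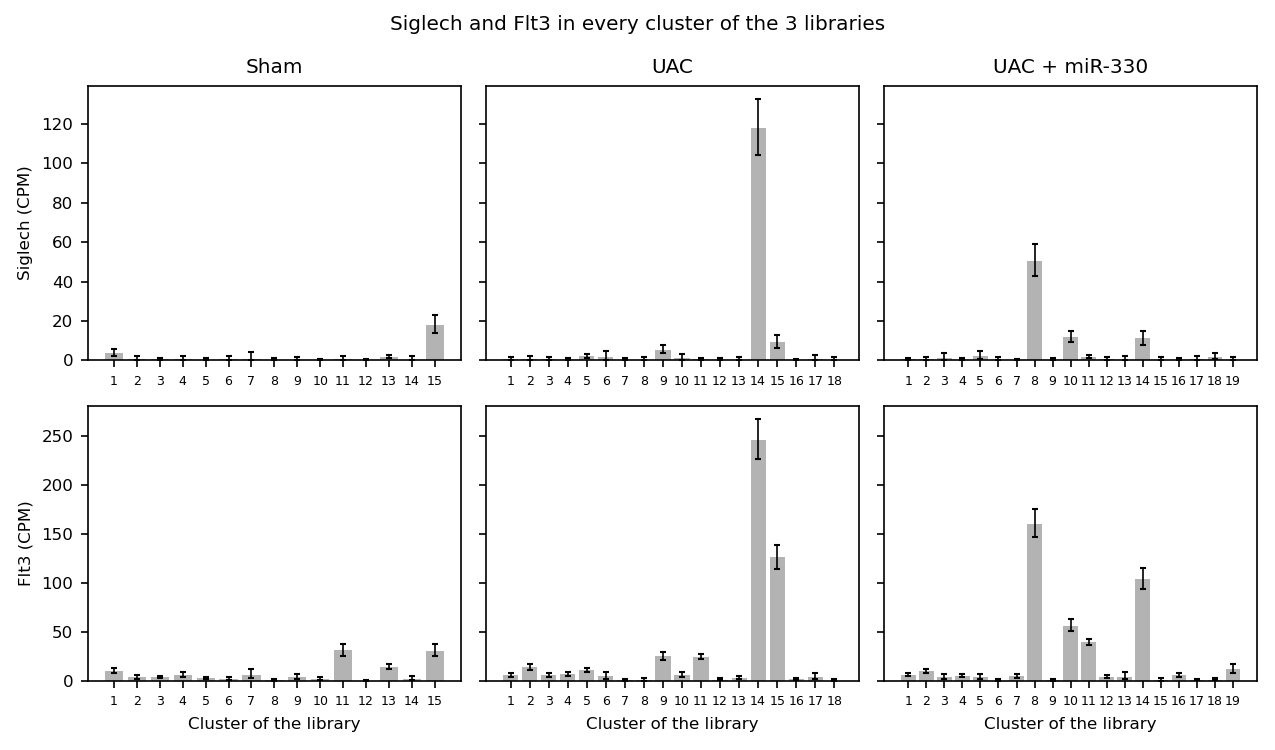
Siglech and Flt3 levels (CPM, with exact Poisson 95% intervals as error bars) in every cluster of the 3 libraries, sham, then UAC, then UAC + miR-330. Cluster 14 of UAC is highest for both, at 117.9 CPM of Siglech and 246 CPM of Flt3, followed by cluster 8 of UAC + miR-330 at 50.4 and 160 CPM.

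Cluster 8 of UAC + miR-330 was also the cluster most like cluster 14 over all genes. The Spearman correlation of CPM across 9662 genes was 0.963, a description over genes, which are not independent replicates. Next came cluster 1 of sham at 0.897, cluster 2 of UAC at 0.896 and cluster 2 of UAC + miR-330 at 0.891. Cluster 1 of sham had the highest Ms4a1 of sham, 383 CPM. The cluster of sham with most Siglech was thus not the one most like cluster 14. Each of the 25 leading genes was lower in sham's highest cluster than in cluster 14, with intervals apart, by 2.77 times for Icoslg to 26.3 times for Camk2a and a median of 6.54. The choice of these genes by their level in UAC favours that direction, so nothing is read from it. Of the 25, 12 had their highest sham level in cluster 1 and 9 in cluster 15. Fcer2 at 8.81 CPM and Cxcr5 at 6.73 CPM were highest in sham cluster 1, and Siglech at 18.02 CPM and Irf8 at 161 CPM in sham cluster 15, although cluster 1 held more Irf8 UMIs, 670 against 545. Kmo (7.37 and 10.9 CPM) and Sh3gl2 (6.73 and 10.9 CPM) were not apart between sham clusters 1 and 15. Tcf4 was an exception among the 4 given markers, since cluster 11 of sham reached 1048 CPM.

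Cluster 14 was set beside cluster 8 of UAC + miR-330 after their likeness was seen. Cluster 8 had 3093723 UMIs, 3.18% of its library, against 2.51% for cluster 14. Over 7690 genes with at least 50 UMIs in the 2 clusters together, 10.1% were higher in cluster 14 with intervals apart and 18.7% were lower, with a median log2 ratio of -0.09. Plasmacytoid genes lay on the higher side: of 20 with enough UMIs, 9 were higher in cluster 14, 2 lower and 9 not apart, with a median of 0.47. Some genes of other cell types were also higher. Of 3 T and natural killer cell genes, 2 were higher and none lower, and of 6 neutrophil genes, 3 were higher and 2 lower. The neutrophil gene Ngp stood at 178 CPM against 70.1 CPM, a log2 ratio of 1.34. The 1 monocyte and macrophage gene with enough UMIs was lower. Siglech stood at 117.9 CPM against 50.4 CPM, a log2 ratio of 1.22. Bst2 at 315 CPM against 145 CPM, Pld4 at 106 CPM against 52.4 CPM and Spib at 142 CPM against 76.6 CPM had log2 ratios of 1.12, 1.01 and 0.89. Runx2 stood at 344 CPM against 189 CPM, Tcf4 at 1087 CPM against 761 CPM and Irf8 at 476 CPM against 357 CPM. Smim5 and Atp1b1 were the other higher genes, and Mctp2 was among the lower ones. Of 13 conventional genes, Flt3 (246 against 160 CPM), Kmo (92.1 against 53.0 CPM) and Cst3 were higher in cluster 14 and Wdfy4 was lower.

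Mature B cell genes lay on the other side. Of 16, 7 were lower in cluster 14 than in cluster 8 and 2 higher, with a median of -0.26. Ms4a1 stood at 140 CPM against 232 CPM, Cxcr5 at 174 CPM against 273 CPM and Bank1 at 1468 CPM against 2392 CPM, and Ccr6, Fcrl5, Btla and Zfp318 were also lower. Of 8 class II genes, Cd74, RT1-Da, RT1-Db1, RT1-Ba and RT1-DOa were higher and RT1-DOb was lower. The 25 leading genes split into 9 higher, 11 lower and 5 not apart. The balance of all genes depended on the scale. On the deposited scale, the means of every cluster of a library sum to the same total, 5200 in UAC and 6123.5 in UAC + miR-330. It therefore does not measure RNA per cell of either cluster, and it moves every log2 ratio down by 0.24. On that scale 330 genes were higher and 2646 lower, in place of 780 and 1436. The 9 plasmacytoid genes named above, Flt3 and Kmo were higher on both scales, and the 7 mature B cell genes lower on both. On the deposited scale the class II list had 3 higher and 4 lower, with a median of -0.03 in place of 0.21. The mature B list had none higher and 13 lower, and the conventional list 3 and 3. The neutrophil list then had 2 higher and 3 lower, and the T and natural killer cell list 1 higher and none lower. RT1-Db1 and Ighm, higher by CPM, were lower on the deposited scale, and RT1-Ba and Cd37 were then not apart.

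**Figure D3:**
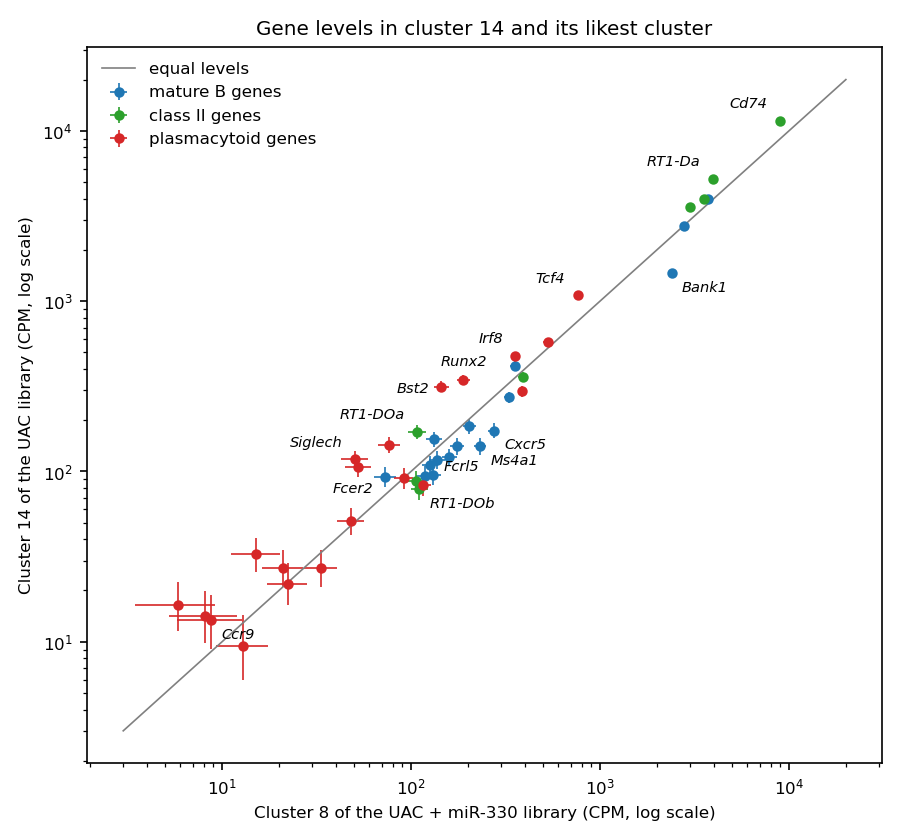
Level of plasmacytoid, class II and mature B cell genes in cluster 14 of UAC (vertical, CPM, log scale) against cluster 8 of UAC + miR-330 (horizontal, CPM, log scale), with exact Poisson 95% intervals as error bars and a line of equal levels. Siglech (117.9 against 50.4 CPM) lies above the line and Ms4a1 (140 against 232 CPM) below it.

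Summed over all clusters, Siglech and Flt3 were higher in UAC than in sham. Siglech stood at 1.65 CPM (1.37 to 1.96) in sham, 4.25 CPM (3.84 to 4.69) in UAC and 3.40 CPM (3.05 to 3.79) in UAC + miR-330. UAC was higher than sham by a log2 ratio of 1.36, and UAC + miR-330 was lower than UAC by CPM with a log2 ratio of -0.32, though not apart on the deposited scale, at -0.09. Flt3 stood at 7.36 CPM (6.77 to 7.99), 19.9 CPM (19.0 to 20.8) and 21.6 CPM (20.7 to 22.6). Its log2 ratio was 1.43 for UAC to sham, and the last 2 libraries were not apart by CPM, at 0.12, but were apart on the deposited scale, at 0.36. Irf8 stood at 24.6, 37.0 and 42.6 CPM, and Tcf4 at 386, 398 and 465 CPM, each step apart. Without cluster 14, the UAC library had 1.33 CPM of Siglech and 14.04 CPM of Flt3, and without cluster 8 the UAC + miR-330 library had 1.86 and 17.1 CPM.

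The whole lists moved less than these genes did. Of 25 plasmacytoid genes with at least 50 UMIs in UAC and sham together, 15 were higher in UAC with intervals apart and 6 lower, while of all 14233 genes 24% were higher and 26.9% lower. The list's median was 0.14 against -0.02 over all genes. Of 27 conventional genes, 13 were higher and 8 lower, with a median of 0.15. On the deposited scale, which moves every ratio up by 0.20, the plasmacytoid counts were 18 and 3, the conventional counts 15 and 3, and the shares of all genes 47.2% and 10.2%. All 25 leading genes of cluster 14 were higher in UAC than in sham on both scales, with a median of 0.77 by CPM. Since these genes were picked for their level in UAC, nothing is read from that count. Cxcr5 stood at 0.734, 6.27 and 10.4 CPM in sham, UAC and UAC + miR-330, and Kmo stood at 1.40, 3.57 and 3.53 CPM.

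From UAC to UAC + miR-330, 13 of 25 plasmacytoid genes were higher and 8 lower, with 41.6% of 14482 genes higher and 18.9% lower. The list's median of 0.20 stood near the 0.13 of all genes. Of 28 conventional genes, 9 were higher and 6 lower, with a median of 0.09. On the deposited scale, which moves ratios up by 0.24, the plasmacytoid counts were 17 and 2, the conventional counts 19 and 2, and the shares of all genes 63.8% and 5.54%. Taking for each gene only the cluster that held most of it, the plasmacytoid median was -0.01. The plasmacytoid genes lower by CPM were Siglech, Irf7, Pld4, Spib, Bst2, Dntt, Lag3 and Mzb1, of which Lag3 and Mzb1 were lower on both scales.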

How the data were processed

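Condylar cells were measured by droplet single-cell RNA sequencing in 1 library each of sham, UAC and UAC + miR-330, grouped by sample title. The labels tag both UAC samples with the same treatment, so only title and order tell Vector AAV from miR-330. Per the labels, reads were processed with Cell Ranger 7.0, STAR and Seurat 4.0.1. The submitters' notes name human and mouse builds (GRCh38 and mm10), while the identifiers are of rat genes, so the build is not known and no coordinate comes from the files. The authors deposited, for each library, a table of graph-based clusters with the mean count signal of each gene per cluster, a log2 fold change and an adjusted p-value. The deposited log2 fold changes and p-values compare cells and were not used.

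Each mean was divided by the smallest positive mean of its column to recover UMIs, and 100% of values were whole within 0.001 in all 3 libraries. Identifiers with the same name were summed (106 names in UAC). CPM, exact Poisson and binomial 95% intervals, log2 ratios with 0.5 UMI added and Spearman correlations were computed with Python 3.11.15, numpy 2.4.6, pandas 2.3.3 and scipy 1.17.1, drawn with matplotlib 3.10.9, and checked on simulated data. Depth was 77668015 (sham), 92629658 (UAC) and 97255383 UMIs (UAC + miR-330).

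Of 313 listed genes, 290 were matched by name, 4 by synonym and 19 not. The members and lists were chosen with earlier results of these data known. Named genes were the 4 given markers, members of the plasmacytoid and conventional lists with at least 10 UMIs or none, up to 3 most abundant members of every other list, the 25 leading, 15 most abundant and 10 lowest genes. Others were named after their values were seen. The mature B list, the Y box, and the comparisons with clusters 2 and 8 were also chosen then. A list of 5 genes the study followed, outside dendritic biology, was left out. Alternatives changed the added UMIs, the minimum of UMIs, the clusters compared with, the log2 limit, the denominator and the scale.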

Additional observations from a re-analysis of the deposited data

How the results depend on the processing

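Against the highest of the other 17 clusters in place of the pool, enriched members fell to 3 of the plasmacytoid, 2 of the conventional, 1 of the B-lineage and 6 of the mature B list. The medians were then -1.83, -2.84, -1.46 and 0.77, with 1.54 for class II, and the log2 ratio of Tcf4 was -0.15. This follows from the construction, since the highest cluster is never below the pool. Against cluster 2 alone, added after the values were seen, 8 conventional, 1 B-lineage and 7 mature B members were enriched, with medians of 0.75, -0.67 and 0.84, and class II had 1.95. With the other clusters weighted alike, class II had 4.44 and mature B 3.35. Without cluster 9, class II had 4.82.

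A log2 limit of 2 left 8 plasmacytoid and 3 conventional members, and a minimum of 50 UMIs left 3 conventional. A minimum of 1 UMI gave a B-lineage median of 0.80. Adding 5 UMIs before the log gave a conventional median of 0.000911, because equal additions weigh more in the smaller sum of cluster 14. An addition in proportion to depth, also chosen after the values were seen, kept the direction of each list median named here. Without mitochondrial, ribosomal protein and immunoglobulin genes, cluster 14 held 2.39% of UMIs. By highest CPM, Flt3 was held by cluster 11 in sham and cluster 8 in UAC + miR-330.

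On the deposited scale, UAC to sham gave medians of 0.34 for both the plasmacytoid and the conventional list, and UAC + miR-330 to UAC gave 0.44 and 0.32. Against cluster 8, 330 genes were higher and 2646 lower, and the mature B median was -0.49. In the single cluster holding most of each gene, the plasmacytoid medians were 0.32 and -0.00836, and Flt3 had -2.66 for UAC + miR-330 to UAC, where clusters 11 and 14 are then compared. Where no construction is named, the cause was not tested. Of the other pairs of a value and an alternative, 331 stayed within counting error, or within 1.5 times for counts, and 43 moved a lesser value without turning its direction.

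No paired analysis was possible because each condition is 1 pooled library. Depth limits cluster 14: a gene at 0 can lie anywhere up to 1.29 CPM, so Xcr1, Batf3, Tlr3 and Cd34 at 0 give no difference from the rest. The estimate of 447 cells assumes typical UMI content. Pooled condyles hide the spread between rats.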

Other observations

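Cluster 14 carried genes outside the lists of immune types. These were picked after their values were seen and are given as values. Homer1, a scaffold of synapses, stood at 125 CPM (111 to 141) against 48.1 CPM in cluster 2, the next highest. Ephb2, a guidance receptor, stood at 48.6 CPM with 44.0% of the library's 257 UMIs, and Adgrv1, an adhesion receptor, at 58.1 CPM. Cnr2, the cannabinoid receptor of leukocytes, stood at 58.5 CPM against 24.7 CPM in cluster 2. Hpse, which cuts heparan sulfate, stood at 250 CPM against 118 CPM in cluster 15, beside the heparan sulfate enzyme gene Hs3st3a1 at 158 CPM. The lipid enzyme genes Acer3 at 606 CPM, Plpp3 at 99.0 CPM and Daglb at 287 CPM were each highest in cluster 14. St8sia4, which adds polysialic acid, stood at 846 CPM (809 to 884) against 333 CPM in cluster 9.

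Some genes outside the lists differed widely between cluster 14 and cluster 8 of UAC + miR-330, and those named here were picked after their values were seen. Rgs1, which damps chemokine receptors, stood at 224 CPM against 65.0 CPM, a log2 ratio of 1.78. Ern1, a sensor of endoplasmic reticulum stress, stood at 146 CPM against 54.0 CPM, and Plaur, the urokinase receptor, at 325 CPM against 142 CPM. LOC108348108, whose product is not named, had the largest difference upward among genes with at least 200 UMIs in both clusters together. It stood at 124 CPM against 9.05 CPM. Lower in cluster 14 were Rnf213 at 28.4 CPM against 76.3 CPM, the RNA sensor gene Ifih1 at 22.4 CPM against 55.0 CPM and March1, a ligase that removes class II from the surface, at 278 CPM against 628 CPM. Among interferon-stimulated genes, Ifit2, Ifit3, Mx1 and Herc6 were lower and Bst2 was higher. The secretory list had 7 genes higher in cluster 14 and 1 lower by CPM, with a median of 0.33. On the deposited scale it had 2 higher and 1 lower, with a median of 0.09. Of all 7690 genes, 10.1% were higher and 18.7% lower by CPM, and 4.29% and 34.4% on the deposited scale.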
